A study of Mus musculus with 8 samples.

Results

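The transcript levels of 10 genes by which endothelial cells are commonly recognised were followed in the ventricles of 8 banded mice: Pecam1, Cdh5, Kdr, Flt1, Tek, Tie1, Vwf, Eng, Emcn and Nos3. They were taken as a fixed list of names, each measured by the probe set that carried its symbol alone and had the highest mean over the 8 arrays. All 10 were found, among 9607 genes measured in all, and each lay above a log2 value of 5 in every array. Of the 8 male mice on an FVB background, 4 carried a CHF1/Hey2 transgene whose expression the mlc2v promoter restricts to the myocardium, and the other 4 were wild type. All were 8 to 12 weeks old when used, and in all of them the ascending aorta had been banded for 1 week, so that pressure load is shared by both groups and hearts without banding were not analysed here. Whole-ventricle RNA was read on Affymetrix mouse expression arrays, called TG 1 to TG 4 and WT 1 to WT 4 below. Each array was taken as 1 mouse, which the labels do not spell out. The deposited values are log2 expression values after GCRMA. The transgene acts in heart muscle cells, whereas the 10 genes are read from the blood vessels and the inner lining of the same tissue. In bulk RNA, fewer endothelial cells and less RNA per endothelial cell cannot be told apart.

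Endothelial cells line every vessel and the chambers of the heart, and in the ventricle they form a dense capillary bed around the muscle fibres. They are held together by junction proteins, respond to vascular endothelial growth factor (VEGF) and to angiopoietins through receptor tyrosine kinases, and release nitric oxide and von Willebrand factor. Transcription factors of the ETS family, which recognise a GGAA core, drive many endothelial genes.

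Some arrays stood apart. Across genes, r between TG 2 and each of the others was 0.788 to 0.840, between TG 3 and the 6 remaining arrays 0.935 to 0.964, and among those 6 it was 0.977 to 0.992. In TG 2, 37.2% of all genes differed by over 2-fold from the median that the other 7 arrays gave, and in TG 3 9.27% did. Hey2 itself lay between 5.70 and 6.26 in the TG arrays and between 5.68 and 6.76 in the WT arrays (difference -0.11, SE 0.257; limma adjusted p = 0.883), so it gave no check of the labels, and "TG" stands for arrays labelled transgenic throughout. Differences and correlations are therefore also given without TG 2, or without TG 2 and TG 3.

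Promoter windows from RefSeq are given here for 6 of the 10 genes, from 250 bases before to 50 bases after an annotated start on GRCm38.p6. Tie1 and Eng are shown because they were among the members that were highest in TG 2, and Kdr and Flt1 because they were lowest there. Capitals mark the letters GGAA on either strand, read as TTCC where the match is on the other one.
Tie1 promoter, chr4:118489800-118490099, minus strand: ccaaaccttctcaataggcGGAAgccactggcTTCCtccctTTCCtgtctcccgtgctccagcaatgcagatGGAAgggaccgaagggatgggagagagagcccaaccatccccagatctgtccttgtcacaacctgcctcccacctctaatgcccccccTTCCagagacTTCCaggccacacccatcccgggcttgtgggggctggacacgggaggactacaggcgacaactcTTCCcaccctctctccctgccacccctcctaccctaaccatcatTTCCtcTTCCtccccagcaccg
Eng promoter, chr2:32646345-32646644, plus strand: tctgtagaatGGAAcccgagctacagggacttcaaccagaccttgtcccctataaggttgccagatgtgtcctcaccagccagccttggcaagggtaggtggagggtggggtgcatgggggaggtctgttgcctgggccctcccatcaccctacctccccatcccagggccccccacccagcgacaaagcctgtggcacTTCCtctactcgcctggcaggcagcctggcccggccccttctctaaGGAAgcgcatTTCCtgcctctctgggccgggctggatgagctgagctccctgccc
Kdr promoter, chr5:75978406-75978705, minus strand: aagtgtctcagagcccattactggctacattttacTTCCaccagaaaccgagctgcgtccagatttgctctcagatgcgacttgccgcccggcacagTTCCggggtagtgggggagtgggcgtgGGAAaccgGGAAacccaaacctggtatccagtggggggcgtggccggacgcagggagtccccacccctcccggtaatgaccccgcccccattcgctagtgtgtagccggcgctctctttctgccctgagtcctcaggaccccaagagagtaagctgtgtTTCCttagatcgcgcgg
Flt1 promoter, chr5:147725962-147726261, minus strand: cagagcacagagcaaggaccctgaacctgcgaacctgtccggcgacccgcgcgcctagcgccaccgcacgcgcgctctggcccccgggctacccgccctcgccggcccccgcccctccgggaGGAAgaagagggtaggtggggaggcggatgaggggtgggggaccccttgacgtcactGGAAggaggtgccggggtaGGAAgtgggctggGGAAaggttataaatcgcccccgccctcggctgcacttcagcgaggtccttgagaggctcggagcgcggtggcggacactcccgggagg

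In these windows GGAA was found 9 times in Tie1, 4 times in Eng, 5 times in Kdr and 4 times in Flt1, and 96% of all 32851 promoter windows held it at least once, with a median of 3 matches. Emcn had 6 matches and Tek had 2. The longer form AGGAAG, in which each match also contains a GGAA, was found 2 times each in Tie1, Eng, Emcn and Flt1 and not in Kdr or Tek, and 35.4% of all windows held it. Flt1, lowest in TG 2, thus held the longer form, as did Tie1, Eng and Emcn, which were highest there. Kdr, also lowest there, and Tek did not hold it. Pecam1, Cdh5, Vwf and Nos3 had no window here, and the part of the motif in the TG 2 values was not tested. A match is a run of letters and not a site known to be bound.

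The comparison of banded TG with banded WT hearts asked what a muscle-restricted CHF1/Hey2 transgene does to the loaded ventricle, read here through its endothelium. None of the 10 genes passed the test. With limma and Benjamini-Hochberg adjustment over all 9607 genes, 0 of 10 members had an adjusted p under 0.05 (0% of all genes did), 0 had an unadjusted p under 0.05 (1.59% of all genes), and the smallest adjusted p of a member was 0.813. A test of each gene alone, with unequal variances in the groups, called 0 of the 9607 genes as well, with 144 genes at an unadjusted p under 0.05 beside 153 in limma. The TG mean was higher for 9 members and lower for 1, Flt1, where 57% of all genes had a higher mean in TG. The median difference of the members was 0.24, beside 0.06 over all genes. Without TG 2 the members' median was 0.06, with 7 higher and 3 lower, and without TG 2 and TG 3 it was 0.16. The 2 groups overlapped for every member, while they did not overlap for 2.48% of all genes.

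**Figure D1:**
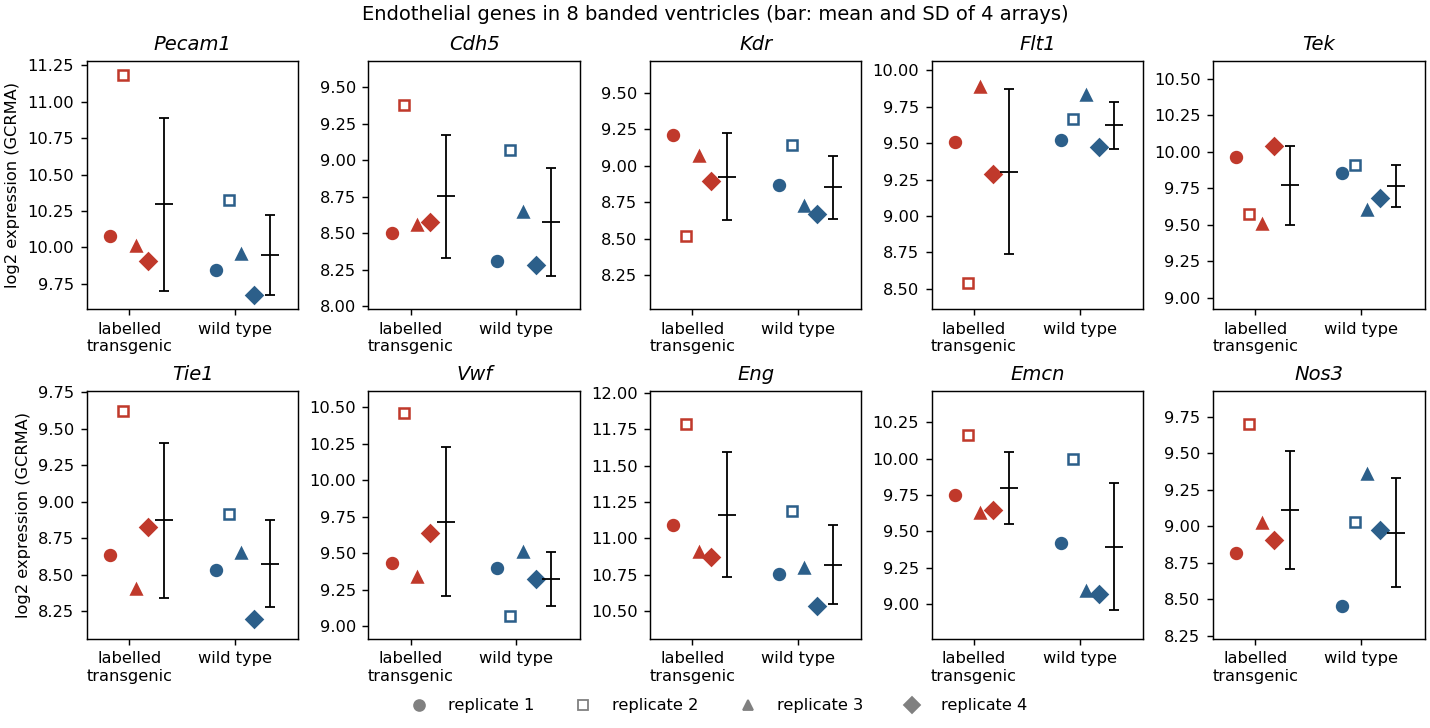
Deposited log2 expression of the 10 endothelial genes in each array, arrays labelled transgenic on the left of each panel and wild type on the right. Marker shape gives the replicate number, the horizontal tick and bar give the mean and SD of 4 arrays, and every panel spans the same height. TG 2, the open square, is the highest of the 8 values in 7 panels and the lowest in those of Kdr and Flt1.

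The junction genes showed the common pattern first. Pecam1 (probe set 1421287_a_at) encodes CD31, an adhesion molecule of endothelial junctions that platelets and leukocytes also carry. It had log2 values of 10.08, 11.18, 10.01 and 9.91 in TG 1 to TG 4 and of 9.85, 10.32, 9.95 and 9.67 in WT 1 to WT 4. TG 2 stood far above all other arrays, and the other TG arrays lay within the WT range. The means were 10.30 ± 0.60 in TG and 9.95 ± 0.27 in WT (SD, n = 4 each), and their difference of 0.35 was smaller than the TG spread (95% confidence interval -0.35 to 1.04; two-sided exact permutation p = 0.400; with 4 against 4 arrays no p under 0.0286 can be reached). Without TG 2 it was 0.05. Cdh5 (probe set 1433956_at) encodes VE-cadherin, the adherens junction protein that is restricted to endothelium. Its values were 8.50, 9.38, 8.56 and 8.58 in TG arrays and 8.31, 9.07, 8.65 and 8.28 in WT arrays. Here both TG 2 and WT 2 stood above the rest. The difference was 0.17 (SE 0.268; exact permutation p = 0.543) and turned to -0.03 without TG 2. A second Cdh5 probe set (1422047_at) stayed below 5 in all 8 arrays and was not used.

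Kdr and Flt1, both receptors of VEGF ligands, were lowest in TG 2. Flt4, the receptor of the family that marks lymphatic endothelium and is no member, was highest there instead, at 9.27 with the other 7 arrays between 8.34 and 8.79. Kdr (probe set 1449379_at), VEGF receptor 2 and the main signalling receptor of the family, had values of 9.21, 8.52, 9.07 and 8.90 in TG arrays and of 8.87, 9.14, 8.72 and 8.67 in WT arrays. TG 2 was the lowest of all 8 and TG 1 the highest. The difference of 0.07 (SE 0.202; exact permutation p = 0.714) was 0.21 without TG 2. Flt1 (probe set 1419300_at), VEGF receptor 1, binds VEGF tightly and is known as a decoy. Its values were 9.51, 8.54, 9.88 and 9.29 in TG arrays and 9.52, 9.66, 9.83 and 9.47 in WT arrays. It was the only member with a lower TG mean, at 9.30 ± 0.56 against 9.62 ± 0.16 in WT (SD, n = 4 each), with TG 2 and TG 4 below every WT array and TG 3 above them. The difference of -0.32 (SE 0.279; exact permutation p = 0.400) was -0.06 without TG 2.

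Flt1 was read by 4 probe sets, which allowed a check within the gene. The second (1451756_at), with values of 9.16, 8.17, 9.63 and 8.91 in TG arrays and of 8.87, 8.99, 9.39 and 8.83 in WT arrays, followed the first over the 8 arrays (r = 0.93). The third (1440926_at) was 2.94 in TG 2 but between 6.25 and 7.55 in the other 7 arrays, and it too followed the first (r = 0.92). All 3 were thus lowest in TG 2 and highest in TG 3. The fourth (1454037_a_at), near the filter level of 5 in most arrays, did not share this order (r = 0.19). The sign of the group difference was not the same in each, with -0.32, -0.05, -0.83 and 0.29 from the first to the fourth.

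The angiopoietin receptors parted from each other. Tek (probe set 1418788_at) encodes Tie2, the receptor of the angiopoietins, and had values of 9.96, 9.57, 9.51 and 10.04 in TG arrays and of 9.86, 9.91, 9.60 and 9.68 in WT arrays. It varied least of the 10 genes, with an SD of 0.20 over the 8 arrays, and TG 2 and TG 3 lay below every WT array while TG 1 and TG 4 lay above them. The difference was 0.01 (SE 0.184; exact permutation p = 0.943), with a 95% confidence interval from -0.41 to 0.43, and it was 0.07 without TG 2 and 0.24 without TG 2 and TG 3. Tie1 (probe set 1416238_at), its paralog that has no well-established ligand of its own and modulates Tek, had values of 8.63, 9.63, 8.40 and 8.83 in TG arrays and of 8.53, 8.92, 8.65 and 8.20 in WT arrays. TG 2 was highest and WT 4 lowest. The difference of 0.30 (SE 0.287; exact permutation p = 0.429) was 0.05 without TG 2.

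Eng (probe set 1417271_a_at) encodes endoglin, a co-receptor of the TGF-beta family in endothelium. Its values were 11.09, 11.79, 10.91 and 10.87 in TG arrays and 10.76, 11.19, 10.80 and 10.54 in WT arrays. Again TG 2 was highest, followed by WT 2. The difference of 0.34 (SE 0.249; exact permutation p = 0.20) was 0.14 without TG 2. A second Eng probe set (1432176_a_at) had 10.13 in TG 2 and between 8.85 and 9.29 in the other 7 arrays, with r = 0.84 to the first over the 8 arrays. There WT 2 did not stand out, at 9.06 with WT arrays between 8.85 and 9.14.

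Emcn (probe set 1425582_a_at), endomucin, is a sialomucin of capillary and venous endothelium and of the endocardium, and it was the member with the largest group difference. Its values were 9.75, 10.16, 9.63 and 9.65 in TG arrays and 9.42, 9.999, 9.09 and 9.07 in WT arrays. All 4 TG arrays lay above WT 1, WT 3 and WT 4, and WT 2 lay above 3 of them. The means were 9.80 ± 0.25 in TG and 9.40 ± 0.43 in WT (SD, n = 4 each). The difference of 0.40 had a 95% confidence interval of -0.16 to 0.96 and an exact permutation p of 0.20. It was 0.28 without TG 2 and 0.30 without TG 2 and TG 3. Without WT 2 it was 0.60 (SE 0.215; limma adjusted p = 0.895), which was the only omission of 1 array that gave a member an unadjusted p under 0.05. It was 0.30 without WT 3 and 0.29 without WT 4.

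Vwf (probe set 1435386_at) encodes von Willebrand factor, the adhesive glycoprotein that endothelial cells store and that megakaryocytes also make. Its values were 9.43, 10.46, 9.34 and 9.64 in TG arrays and 9.40, 9.07, 9.51 and 9.32 in WT arrays. It was highest in TG 2, as 6 other members were, but WT 2 held its lowest value of all. The difference of 0.39 (SE 0.263; exact permutation p = 0.171) was 0.14 without TG 2. Nos3 (probe set 1422622_at), endothelial nitric oxide synthase, had values of 8.82, 9.70, 9.02 and 8.90 in TG arrays and of 8.46, 9.03, 9.36 and 8.97 in WT arrays. TG 2 was highest and WT 1 lowest, and 3 of the 4 TG arrays lay inside the WT range. The difference of 0.16 (SE 0.265; exact permutation p = 0.629) was -0.04 without TG 2.

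**Figure D2:**
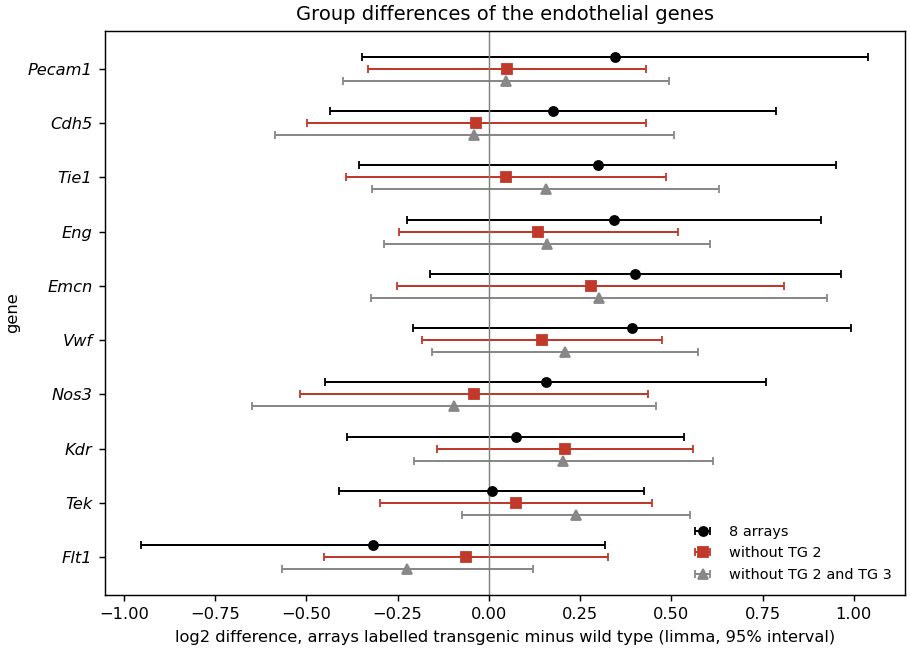
Difference of the group means for each gene, arrays labelled transgenic minus wild type on the log2 scale, with limma's 95% confidence interval. Circles use all 8 arrays, squares leave out TG 2 and triangles leave out TG 2 and TG 3. Every interval includes 0, and 9 of the 10 circles lie above it.

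Set against the WT mean, the members split within a single array. In TG 2, 7 members lay above it, from Nos3 at 0.75 and Emcn at 0.76 to Vwf at 1.14 and Pecam1 at 1.23, and 3 lay below it, Tek at -0.19, Kdr at -0.33 and Flt1 at -1.08. The share above the WT mean was near that of all genes in this array, of which 60.5% lay above. TG 2 was the highest of the 8 arrays for 7 members (46.8% of all genes) and the lowest for 2 (31% of all genes), so it held an extreme value for 9 of 10 members and for 77.8% of all genes. Pecam1 and Vwf, 2 of the 10, differed by over 2-fold from what the other 7 arrays gave, beside the 37.2% of all genes given above. In the other TG arrays the deviations were small, with medians over the members of 0.12 in TG 1, 0.06 in TG 3 and 0.05 in TG 4.

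**Figure D3:**
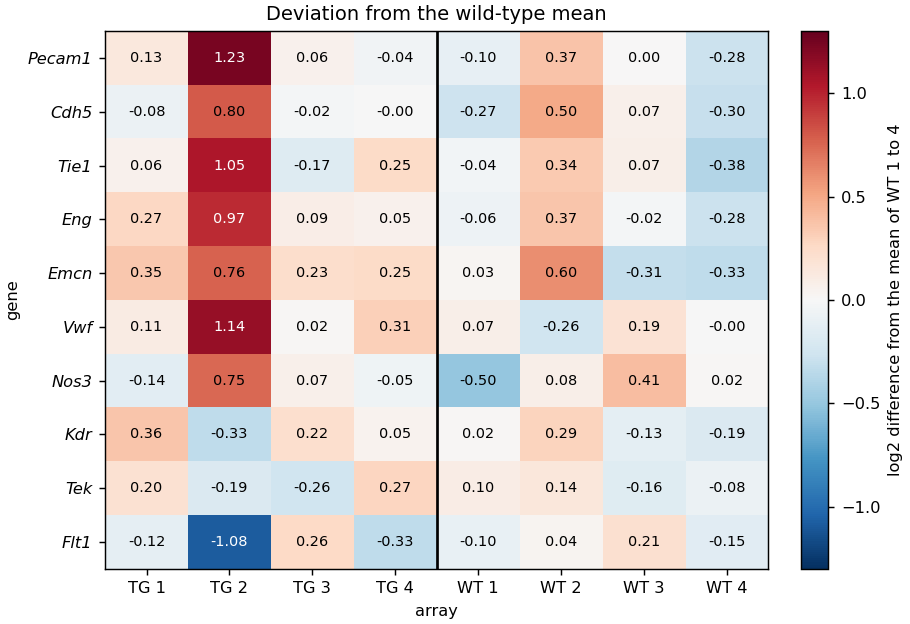
Deviation of each gene in each array from the mean of the 4 wild-type arrays, on the log2 scale, with TG arrays left of the black line. Red is higher and blue lower. The TG 2 column holds the highest value, 1.23 for Pecam1, and the lowest, -1.08 for Flt1, and the WT 2 column is above the wild-type mean for 9 genes while WT 4 is below it for 9.

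Within the WT group most members were high in WT 2 and low in WT 4, arrays singled out here after their values were seen. WT 2 held the highest WT value of 7 members (21.6% of all genes), and 9 of 10 lay above the WT mean there (44.5% of all genes), with a median deviation of 0.32 beside -0.02 over all genes. WT 4 held the lowest WT value of 7 members (25.1% of all genes), and the median deviation was -0.23 beside -0.03 over all genes. The exception in WT 2 was Vwf, at -0.26. The spread between WT arrays was thus of the size of the group differences, and WT 2 was not an array that stood apart over all genes, with 0.749% of them over 2-fold from the other arrays.

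Covariation was described by Pearson's r for each of the 45 pairs of members over the 8 arrays, without a test. The median r was 0.30 (range -0.88 to 0.98), beside 0.04 over all 46142421 pairs of genes measured. The values share arrays, and TG 2 alone sets many of them. Among Pecam1, Cdh5, Tie1, Eng, Emcn, Vwf and Nos3, grouped after their values in TG 2 were seen, all 21 pairs were above 0, with a median r of 0.78, and with Kdr, Flt1 and Tek 19 of 21 pairs were below 0, with a median of -0.32. Without TG 2 these medians were 0.47 and 0.32, and without TG 2 and TG 3 they were 0.48 and 0.40. Of the 21 pairs between the sets, 5 were below 0 in the 6 arrays that remained. Among them were Kdr and Vwf at -0.34, Flt1 and Vwf at -0.36, and Tek and Nos3 at -0.53. Within the first set, 6 of 21 pairs were below 0 over the same arrays, among them Pecam1 and Vwf at -0.50. Negative pairs were thus not particular to those between the sets.

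**Figure D4:**
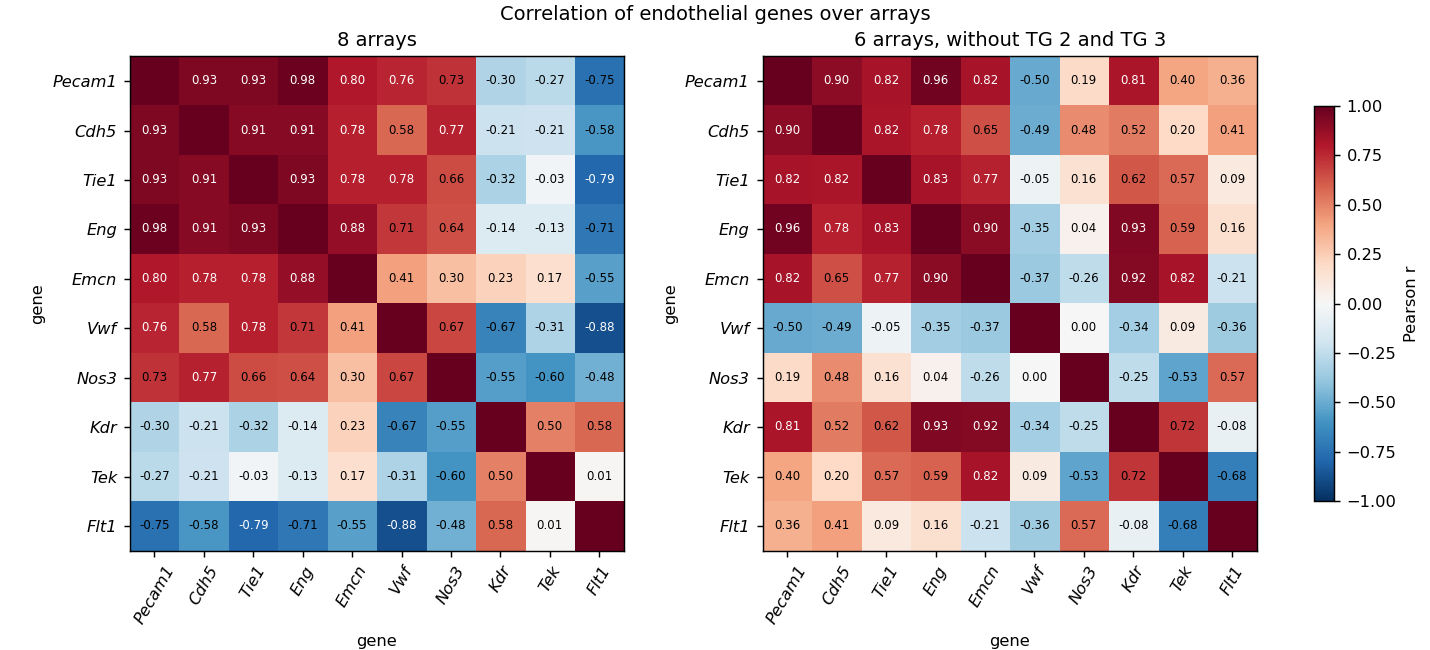
Pearson's r between the 10 genes over all 8 arrays (left) and over the 6 arrays without TG 2 and TG 3 (right), with genes in the same order on both axes. Red is positive and blue negative. Kdr is negatively related to Pecam1 and Eng on the left, at -0.30 and -0.14, and positively on the right, at 0.81 and 0.93.

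Pecam1, Cdh5, Tie1, Eng and Emcn, grouped after their values were seen, were positively related in both sets of arrays, with r between 0.78 and 0.98 over 8 arrays and between 0.65 and 0.96 over 6 in their 10 pairs. Pecam1 and Eng were the closest pair, with r = 0.98 (Spearman's rho 0.98) over 8 arrays and r = 0.96 (rho 0.94) over 6. Pecam1 and Cdh5 had r = 0.93 and 0.90, Eng and Emcn 0.88 and 0.90, and Tie1 and Eng 0.93 and 0.83 over 8 and over 6 arrays. Leaving out TG 2 and WT 2, the arrays farthest from the median of Pecam1, gave r = 0.96 with Eng, 0.71 with Cdh5, 0.69 with Emcn and 0.57 with Tie1. For Cdh5 the same 2 arrays were farthest, and without them its r was 0.65 with Tie1, 0.59 with Eng and 0.27 with Emcn. For Tie1 and for Eng, TG 2 and WT 4 were farthest. Without these, r was 0.51 for Tie1 and Eng, 0.44 for Tie1 and Emcn, and 0.85 for Eng and Emcn. Part of these relations thus rests on TG 2, WT 2 and WT 4. Without TG 2, Kdr had r = 0.91 to Eng, 0.91 to Emcn and 0.80 to Pecam1, but 0.49 to Cdh5 and 0.47 to Tie1. Over 6 arrays these were 0.93, 0.92, 0.81, 0.52 and 0.62, and over all 8 arrays -0.14, 0.23, -0.30, -0.21 and -0.32. Vwf was not stable, with r = -0.50 to Pecam1 over 6 arrays but 0.76 over 8. Of the 45 pairs, 14 had r above 0.7 over the 6 arrays, beside 9.39% of all gene pairs. Tek and Flt1 were opposed in both cases without TG 2, at -0.80 over 7 arrays and -0.68 over 6, but had r = 0.01 over 8. With 6 arrays a single array can set any of these values.

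A summary of the members, the mean of their values after each gene was centred and divided by its SD over the arrays, was set against every gene. Members enter the summary themselves, which raises their own r, and among them it was highest for Eng, at 0.96 over 8 arrays and 0.96 over 6. Symbols ending in Rik and Gm gene models are not named below. Over 6 arrays 1 gene left out in this way had a higher r than any named. Outside the members the closest were Zfp598, a ubiquitin ligase of ribosome quality control, at 0.96, Tmem88 at 0.96, the ribosomal protein genes Rps18 and Rps3 at 0.96 and 0.95, Ccdc12 at 0.95, Cfp, which encodes properdin of the complement system, at 0.94, Dgcr2 at 0.94 and Trib1 at 0.94. Over the 6 arrays without TG 2 and TG 3 they were Tmem74b, Penk, which encodes proenkephalin, and Mfng, a Fringe glycosyltransferase that modifies Notch receptors, at 0.99 each, followed by Rap2a at 0.99, Zfp598, Dgcr2, Kat2a, a histone acetyltransferase, and Eef1d, a subunit of translation elongation factor 1, at 0.98 each. Only Zfp598 and Dgcr2 were on both lists. All of these were picked as the highest among 9607 genes over few arrays. Over 8 arrays 8 genes had a higher r than Trib1, and over 6 arrays 8 had a higher r than Eef1d. How often such values arise by chance was not tested.

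Other genes of the endothelium were read from lists chosen by role. Of 28 measured genes of a wider endothelial list, 0 passed in either direction, 17 had a higher and 11 a lower TG mean, and the median difference was 0.14, or 0.04 without TG 2. Those with the smallest p were Icam2, an adhesion molecule, at 0.54 (SE 0.341), Sox18, a transcription factor of vessel formation, at 0.54 (SE 0.316), and Gpr4, a proton-sensing receptor, at 0.42 (SE 0.289), with a limma adjusted p of 0.813 each. Of the 28 genes 20 had r above 0 with the member summary over 8 arrays and 21 over 6, with medians of 0.50 and 0.49. Over 8 arrays 59.2% of all genes had a higher r with it than Kdr, itself at 0.02. Over 6 arrays 67.7% of all genes had a higher r than Vwf, at -0.23, and 35.5% a higher r than Flt1, at 0.21. Icam2 was at 0.91 and 0.94, Gpr4 at 0.82 and 0.87, and Sox18 at 0.71 and 0.50 over 8 and over 6 arrays, while Calcrl, a receptor subunit for adrenomedullin named after its values were seen, was at -0.74 and -0.61. In TG 2, 18 of 28 genes of this list lay above the WT mean (60.5% of all genes), and in WT 2 21 of 28 did (44.5% of all genes). The same 60.5% of all genes belongs beside the counts above the WT mean in TG 2 that follow.

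Endothelial transcription factors had 10 of 17 measured genes higher and 7 lower, none past the test, with a median of 0.04. Sox7 and Sox18 differed by 0.62 (SE 0.308) and 0.54, and Ets1, an ETS family factor, by -0.56 (SE 0.349). In TG 2, 11 of the 17 lay above the WT mean, with a median deviation of 0.43. The ETS factors went both ways there, with Ets1 at -1.58 and, named after their values were seen, Erg at -2.27, Fli1 at 0.40 and Elk3 at 0.88. Genes of capillary lipid handling had a median of 0.22, or 0.09 without TG 2. Car4 and Meox2 had the smallest p there, at 0.46 (SE 0.328) and -0.29 (SE 0.240). Gpihbp1, which carries lipoprotein lipase to the capillary surface, came next at 0.46 (SE 0.379). The arterial list had 6 of 10 genes higher, with Hey1, a relative of Hey2, at 0.59 (SE 0.245) and the Notch ligand Dll4 at 0.61 (SE 0.383). In it 1 gene had an unadjusted limma p under 0.05, beside 1.59% of all genes. The list of endoglin partners below also held 1 such gene. The venous, lymphatic, endocardial and activated endothelium lists, with 5, 5, 6 and 6 measured genes, had medians of -0.02, -0.13, 0.08 and 0.15 and no gene past the test.

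The signalling partners of the members did not pass either. Of 9 measured VEGF and angiopoietin ligands and co-receptors, 3 were higher and 6 lower. Vegfb, a ligand of Flt1, differed by 0.32 (SE 0.215), and Ptprb, the phosphatase VE-PTP that acts on Tek and Cdh5, by -0.28 (SE 0.290). In TG 2, 4 of the 9 lay above the WT mean, with a median deviation of -0.01, and Ptprb lay at -1.19. Of 11 measured partners of endoglin, 8 were higher and 3 lower. Smad6, an inhibitory Smad, differed by 0.68 (SE 0.278; limma adjusted p = 0.813), and Bmpr2, a receptor of bone morphogenetic proteins, by -0.69 (SE 0.547), and Tgfbr1, a receptor of TGF-beta, by -0.58 (SE 0.303). In TG 2, 9 of these 11 genes lay above the WT mean, with a median deviation of 0.87, and Bmpr2 at -2.56 and Tgfbr1 at -0.71 lay below it. Of 11 measured partners of Nos3 in the nitric oxide pathway, 4 were higher and 7 lower, with a median of -0.25 that was 0.04 without TG 2. In TG 2, 5 of the 11 lay above the WT mean, with a median deviation of -0.86. Nosip, which encodes a protein that binds Nos3, was at 0.98 there, Pde5a, which breaks down cyclic GMP, at -1.33, and Hsp90aa1, a chaperone that binds Nos3, at -2.35.

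Markers of other cells were read beside the members. In TG 2 the median of 13 mural cell genes lay at 0.84 from the WT mean and that of 12 macrophage genes at 0.83, close to the 0.78 of the endothelial members, whereas 12 fibroblast genes lay at 0.00, 12 heart muscle genes at -0.09 and all genes at 0.29. Genes of 1 list went both ways, with 9 of 13 mural cell and 10 of 12 macrophage genes above the WT mean and the macrophage genes Mrc1 and Cd163 at -1.97 and -2.10. In TG 3 the fibroblast and macrophage medians lay at -1.44 and -1.03, and that of the endothelial members at 0.06. In WT 2, where the endothelial members stood high, the mural cell and macrophage medians were 0.10 each and the fibroblast median was -0.16. Of the 12 macrophage genes 10 had r above 0 with the member summary over 8 arrays and 10 over 6. Their medians were 0.48 and 0.29. For the 12 fibroblast genes the counts were 8 and 4, with medians of 0.12 and -0.13. Of the 13 mural cell genes 9 had r above 0 over 8 arrays and 9 over 6, with medians of 0.51 and 0.37. Over 8 arrays 59.2% of all genes had an r above 0.02, the value of Kdr. Higd1b was at 0.92 and 0.86, and Rgs5 and Pdgfrb, pericyte markers named after their values were seen, were at -0.64 and 0.51 over 8 arrays and at 0.67 and -0.70 over 6. On the log2 scale, the summed level of the mural cell list was 14.83 to 15.04 in TG and 14.83 to 14.95 in WT, and that of macrophages 13.10 to 14.89 in TG and 13.73 to 14.48 in WT. That of fibroblasts was 15.89 to 17.23 in TG and 17.07 to 17.36 in WT, and that of the endothelial members 12.94 to 13.57 in TG and 12.67 to 13.14 in WT. Of the platelet list only Pf4 was measured, at 0.17 (SE 0.205), and of the red cell list only Alas2, which lay at 5.67 to 8.63 in TG and 6.93 to 8.05 in WT. The part of other cell types in the endothelial values was not tested.

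**Figure D5:**
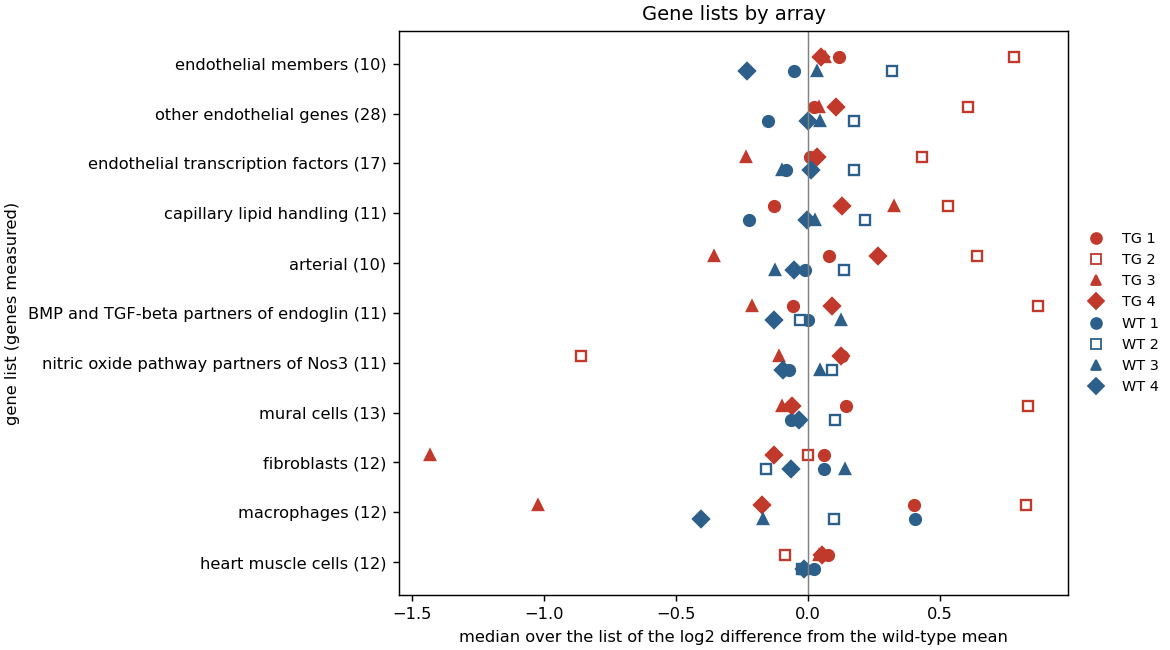
Median of each gene list in each array, as the log2 difference from the wild-type mean, with TG arrays above WT arrays in each row and the number of genes measured in brackets. In TG 2, the red open square, the endothelial members lie at 0.78, mural cells at 0.84 and macrophages at 0.83, and the partners of Nos3 at -0.86. The endothelial members of WT 2, the blue open square, lie at 0.32.

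Values on RNA quality and gene length were also set beside TG 2. The 3′ minus 5′ difference of the Gapdh control probe sets was -0.27 in TG 2 and between -0.28 and -0.11 in the other arrays, and that of beta-actin was 0.62 in TG 2 and between 0.78 and 1.21 elsewhere. The controls did not go one way. For pyruvate carboxylase the difference was 4.71 in TG 2 and between 4.22 and 4.48 elsewhere. For 18S rRNA it was 1.86 in TG 2 and between 1.36 and 1.67 elsewhere, so both lay above every other array. For the transferrin receptor it was 2.36 in TG 2 and between 2.24 and 3.66 elsewhere. The 5′ probe sets of these controls lay below the filter level of 5, at 3.44, 3.99 and 3.01 in TG 2. Their differences are thus less sure than those of Gapdh and beta-actin. Genes of short genomic span in the RefSeq table tended to be higher in TG 2, with a median deviation of 0.70 in the shortest of 4 equal classes of genes and 0.46, 0.07 and -0.24 in the next 3 (r = -0.30 with the log10 of the span across 9597 genes). Of the members, Tie1, Nos3, Eng and Cdh5, spanning 18.7, 19.7, 36.1 and 42.9 kb, lay above the WT mean in TG 2. Kdr, at 46.2 kb, lay below it. Pecam1, Emcn and Vwf, at 61.1, 90.0 and 134 kb, lay above it, and Tek and Flt1, at 136 and 165 kb, below it. The part of RNA quality and gene length in the split of the members was not tested.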

How the data were processed

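Per the labels, total RNA of heart ventricles from 8 mice was read on Affymetrix whole-genome mouse arrays, 1 per sample, and the authors deposited log2 expression values. The submitters' processing notes name GCRMA, which corrects the background, normalizes by quantiles and summarizes probe sets. Its version was not given in the sources used here. It pulls dim probe sets to a common low level, and arrays give no depth, so their number limits the precision.

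Groups came from the sample titles. Each array was taken as 1 mouse, which the labels do not spell out, so p-values measure only the spread between these samples, which may be technical. Of 45101 probe sets, 34958 had 1 gene symbol in the platform annotation. Symbols were checked by Entrez identifier in a RefSeq table of GRCm38.p6, which changed 0. Probe sets above 5 in at least 4 of the 8 arrays were kept, then for each gene the one with the highest mean, which left 9607 genes. Arrays labelled transgenic minus wild type were fitted with limma 3.58.1 in R 4.3.3 on all 8 arrays, with no block and a Benjamini-Hochberg threshold of 0.05 over all genes. Members also had an exact two-sided permutation test of the group means (scipy 1.17.1). The fit was tested on simulated data with known changes. Correlations are descriptions. Gene names follow a rule: the 10 members, the 8 genes most like their summary over 8 and over 6 arrays, and up to 3 genes of a list by smallest p. Symbols ending in Rik and Gm gene models were left out of the genes most like the summary. The members, lists and tests were chosen with earlier results of these data known. Alternatives changed the filter, normalization, model, probe set rule, threshold and arrays used. Leaving out an array kept the genes that had passed the filter over all 8.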

Additional observations from a re-analysis of the deposited data

Results flagged for a closer look

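In Pecam1, TG 2 at 11.18 stood apart from the other 3 arrays labelled transgenic, at 9.91 to 10.08, and in Cdh5 TG 2 at 9.38 stood apart from values of 8.50 to 8.58. In both, the gap to the next array took up more of the range of the group than Dixon's 95% critical value for 4 samples allows. These were 2 of the 20 groups examined, over the 10 members, and chance flags about 1 in 20. Both flags fell on TG 2, which held the highest or lowest of the 8 values for 77.8% of all genes. The share of all genes that this rule would flag there was not computed, so the flags are not particular to these 2 genes. No WT array was singled out in this way.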

How the results depend on the processing

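No endothelial member passed under any of the alternatives run, with adjusted p between 0.235 and 1.00, and over all genes 0 passed under every alternative except limma's array weights, which called 1 gene outside the members (adjusted p = 0.0373). These weights were 0.0519 for TG 2 and 6.62 for TG 1, and with them 1529 genes and 3 members, Kdr, Eng and Emcn, had an unadjusted p under 0.05, against 153 genes and 0 members without weights. The members' median difference of 0.24 lay between 0.06 and 0.33 when single arrays were left out, lowest without TG 2, and between 0.16 and 0.24 under the others. The median pairwise r of 0.30 lay between 0.24 and 0.45 when single arrays were left out and between 0.19 and 0.40 otherwise. Pecam1, Flt1, Tie1, Vwf, Eng and Emcn kept their sign under every alternative run. Cdh5 turned to -0.00378 with array weights and to -0.0405 without TG 2 and TG 3, and lay between -0.0344 and 0.34 when single arrays were left out. Nos3 turned to -0.17 with array weights and to -0.10 without TG 2 and TG 3, with -0.0410 to 0.29 when single arrays were left out. Kdr lay between -0.0227 and 0.21 when single arrays were left out, negative without TG 1. Tek turned to -0.0277 with quantile normalization and to -0.0126 with each array centred on its median, with -0.0815 to 0.10 when single arrays were left out. The cause of these changes was not tested.

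Replicate numbers are shared by the 2 groups, and the labels do not say whether they pair mice. Deviations of same-numbered arrays correlated at 0.30, -0.01, -0.33 and 0.20 across genes for numbers 1 to 4. Differently numbered arrays correlated at -0.32 to 0.31. With 1 value per number, and TG 2 and TG 3 standing apart, these values cannot settle whether the numbers pair mice. With a replicate block, 0 genes and 0 members were called (smallest adjusted p = 0.845).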

Other observations

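Every list with more than 1 measured gene held genes above and below the WT mean in TG 2. Among genes named after their values were seen, Acvrl1, the receptor partner of endoglin, had 8.94 in TG 2 and between 7.18 and 7.75 in the other 7 arrays, and Cldn5, a tight junction protein of endothelium, had 9.56 and between 8.00 and 8.78. Nrp1, a co-receptor of VEGF with Kdr, had 8.79 in TG 2 and between 10.54 and 11.23 elsewhere. Genomic span was also weakly related to the deviations in WT 2 and WT 4, with r = -0.16 and r = 0.11 across genes. The endothelial members were high in WT 2 and low in WT 4. In the remaining arrays besides TG 2, r lay between -0.07 in TG 1 and 0.05 in WT 1. The part of genomic span in the WT values of the members was not tested.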
